A study of Homo sapiens with 4 samples.

Results

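The ETS genes described here are 10 transcription factor genes, ETV3, ETV4, ETV5, ETV6, ETV7, ETS1, ETS2, ELK1, ELK3 and ELK4, out of 19901 protein-coding genes counted. They were matched to the table by gene symbol. ETV7 was chosen by its fold change between dTAG and DMSO in these same libraries, a fall among the largest of all genes. The values of ETV7 are therefore given as a description without a test, and those of the other 9 genes with the test run over all genes. All 10 had at least 50 counts in every library, the minimum for testing, which 12612 genes met.

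Nascent RNA was measured by TT-Seq, in which 4-thiouridine is fed to cells for 10 min, so that RNA made in that window can be purified and sequenced. The cells were HCT116, a human colon cancer line, in the genotype KAP1_dTAG_CloneD5, a single clone in which both alleles of endogenous KAP1 (TRIM28) carry a C-terminal FKBP12F36V degron and 2 HA tags. Every library came from this clone, grown in medium with serum, and was treated for 8 h with DMSO, the vehicle, or with 500 nM of dTAG-13, a ligand that sends the tagged KAP1 protein for degradation. There were 2 libraries per group, so an exact permutation test over samples could not go below a p of 0.333.

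ETS factors share a winged helix-turn-helix domain that binds DNA around a GGAA core, and most of what separates them lies in their partners and in the signals they receive. ETV4 and ETV5 belong to the PEA3 group, which receives ERK signals and whose genes are repressed by CIC. ELK1, ELK3 and ELK4 are the ternary complex factors, which sit with SRF on serum response elements of immediate early genes. ETV6, ETV7 and ETV3 are known mainly as repressors, and ETV7 is in addition a gene that interferons induce in many cell types. ETS1 and ETS2 are activators that the ERK pathway phosphorylates next to their Pointed domain.

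RefSeq promoter sequences on GRCh38.p14 were found for 6 of the 10 genes (ETV3, ETV6, ETS2, ELK1, ELK3 and ELK4). ETV4, ETV5, ETV7 and ETS1 had no entry. Each window runs from 250 bases before the RefSeq start of the gene to 50 bases after it, and that start was 7 bases from the start of the count interval for ELK3, 49 for ELK4 and 180 for ETV6, whose window therefore lies wholly upstream of the interval. In the sequences, capitals mark the ETS core GGAA, read as TTCC on the other strand. The promoters of ELK3 and ETV6 are shown because they are the members with an entry whose nascent RNA moved in opposite directions past the test, and that of ELK4 because it alone among the 6 held the longer ETS site CCGGAAG. They lie at chr12:96194125-96194424 on the plus strand, chr12:11649424-11649723 on the plus strand and chr1:205631962-205632261 on the minus strand.
ELK3: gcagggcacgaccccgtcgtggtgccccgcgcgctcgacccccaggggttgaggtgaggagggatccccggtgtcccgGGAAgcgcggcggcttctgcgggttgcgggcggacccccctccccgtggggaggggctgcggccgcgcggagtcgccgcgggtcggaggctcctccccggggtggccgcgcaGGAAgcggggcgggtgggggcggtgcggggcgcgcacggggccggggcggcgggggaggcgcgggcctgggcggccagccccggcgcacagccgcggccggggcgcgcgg
ETV6: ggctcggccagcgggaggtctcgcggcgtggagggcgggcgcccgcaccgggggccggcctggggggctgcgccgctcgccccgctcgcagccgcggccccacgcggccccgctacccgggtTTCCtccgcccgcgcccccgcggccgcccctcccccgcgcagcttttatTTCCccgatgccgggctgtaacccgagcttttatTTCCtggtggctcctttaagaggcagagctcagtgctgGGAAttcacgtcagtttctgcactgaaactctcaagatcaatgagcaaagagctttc
ELK4: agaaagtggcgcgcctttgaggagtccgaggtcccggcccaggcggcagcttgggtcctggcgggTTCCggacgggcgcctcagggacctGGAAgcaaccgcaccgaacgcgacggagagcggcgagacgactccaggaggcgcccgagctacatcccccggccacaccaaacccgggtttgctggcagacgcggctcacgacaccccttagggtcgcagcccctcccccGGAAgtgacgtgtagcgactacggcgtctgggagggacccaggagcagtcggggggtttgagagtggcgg
The core occurred 2 times in the ELK3 window, 4 times in that of ETV6 and 3 times in that of ELK4, against a median of 3 over 35116 promoters. Both strands were searched. It is a common string, present in 95.5% of promoters of this length. The site CCGGAAG, which contains the core, was in 10.3% of them. These matches are a description of letters and not of binding.

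Gene counts per library ran from 93105627 to 102314741, and TMM factors, which scale libraries for composition, from 0.970 to 1.05. Over the tested genes, 895 passed an adjusted p of 0.05 in edgeR's quasi-likelihood F test, 434 upregulated and 461 downregulated with dTAG, while upper-quartile scaling gave 255 and 869. Fold changes moved with base composition and length across tested genes, with a Spearman correlation of -0.56 with GC content and 0.42 with gene length. Folds with these trends removed are given beside the called genes of each list and beside some others. The KAP1 gene itself, TRIM28, had 61.7 and 69.8 CPM (counts per 1000000 counts, after TMM scaling) with DMSO and 53.5 and 47.9 with dTAG, a log2 fold change of -0.37 (SE 0.092, adjusted p = 0.019 by the same test). It was -0.10 with GC and length trends removed (adjusted p = 0.173) and 0.28 with the totals of ERCC RNAs, the added spike-ins, as library sizes (0.653), and 7 of 14 alternatives passed, with a range of 4.4e-08 to 0.876. The ligand acts on protein, so this RNA level is no check of the labels. Of 8 epithelial markers, 6 were tested and VIL1 and CDX1 were below the minimum, with a summed level of 1096 to 1216 CPM per library. Fibroblast markers summed to 5.20 to 5.91 CPM with COL1A2 and LUM at 0 in every library, leukocyte markers to 4.08 to 5.14 CPM with PTPRC at 0 in 3 of the 4 libraries, and endothelial markers to 2.25 to 3.54 CPM.

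ETV7 was the ETS gene that differed most between the groups. Its nascent RNA was at 6.29 and 8.83 CPM with DMSO and at 2.57 and 2.86 CPM with dTAG. Both dTAG libraries lay below both DMSO libraries, and the DMSO libraries were further from each other than the dTAG libraries were. The mean was 7.56 ± 1.80 CPM with DMSO and 2.71 ± 0.207 CPM with dTAG (each SD over n = 2), which is 2.79-fold lower, with a log2 fold change of -1.48 (SE 0.19). In this bulk measurement, less nascent RNA per cell and fewer cells making it cannot be told apart. The counts behind these values were 623 and 881 with DMSO and 257 and 258 with dTAG, fewer than for any other of the 10 genes.

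The gene (ENSG00000010030.13) spans 36354091 to 36387800 of chromosome 6 on hg38, on the minus strand, and counts were taken over its whole interval, introns included. It overlapped no other gene of the table. Among the 12612 tested genes its log2 fold change was the second lowest. Since this fall is what put ETV7 on the list, the values just around it are a description as well. DHRS2, which encodes a short-chain dehydrogenase/reductase, was the gene below it at -1.58, and ACSBG1, an acyl-CoA synthetase gene, the next one above it at -1.37. Across 14 alternative settings the log2 fold change of ETV7 lay between -1.70 and -0.76. Its value was -1.22 without DMSO replicate 2, -1.70 without DMSO replicate 1, and -1.40 with GC and length trends removed.

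**Figure D1:**
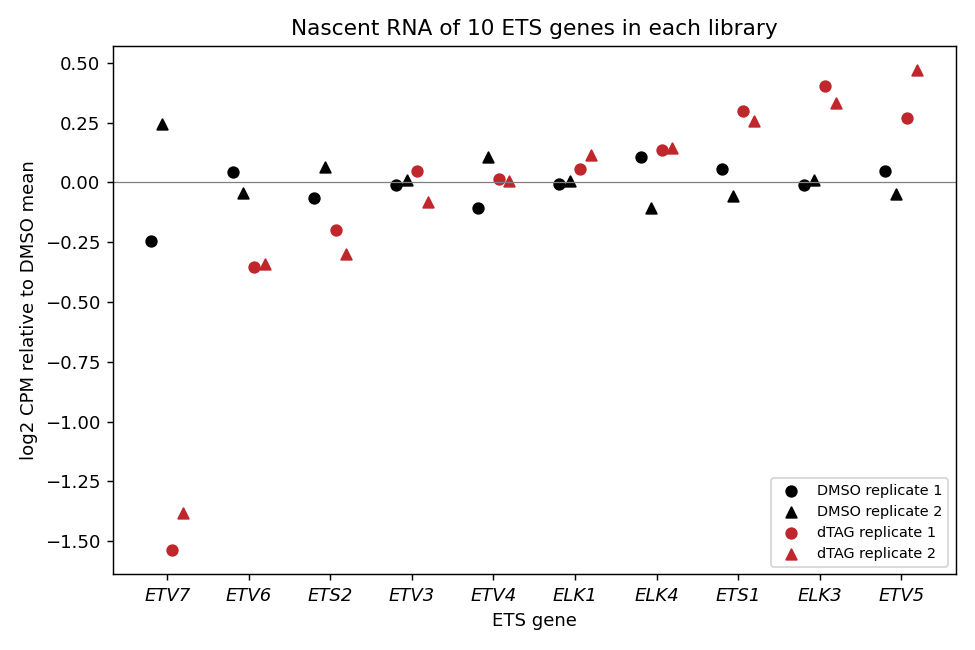
Nascent RNA of the 10 ETS genes (x axis, in order of fold change) in each of the 4 libraries, as log2 CPM with each gene's DMSO mean set to 0 (y axis). Black points are DMSO and red points dTAG libraries. ETV7 stands at 6.29 and 8.83 CPM with DMSO against 2.57 and 2.86 with dTAG, and the other genes stay within a far narrower band.

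**Figure D2:**
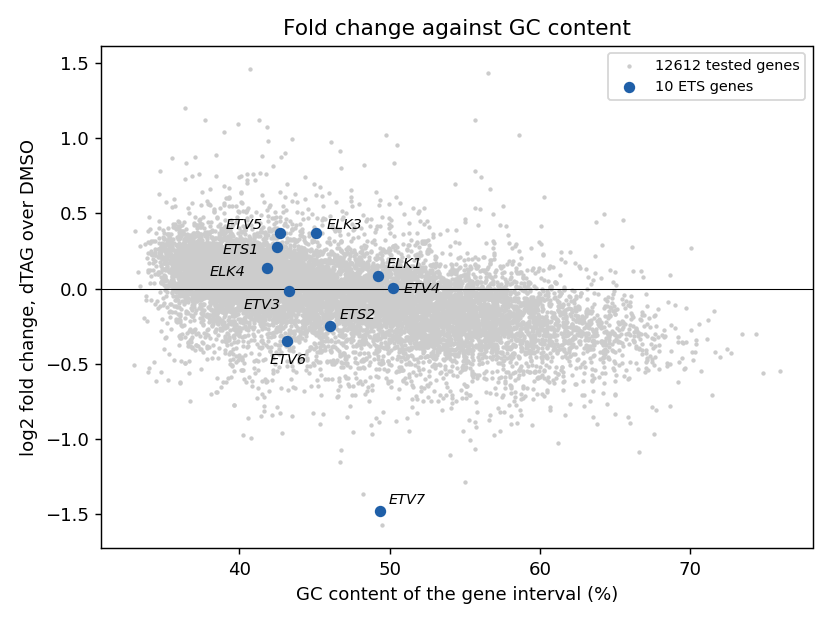
Log2 fold change of dTAG over DMSO (y axis) against the GC content of the gene interval in percent (x axis) for the 12612 tested genes (grey) and the 10 ETS genes (blue). The grey cloud slopes downwards, with a Spearman correlation of -0.56, and ETV7, at 49.3% GC, lies far below the genes of like GC content.

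ETV6, the closest relative of ETV7 in the family and a repressor that forms polymers through its Pointed domain, was also downregulated. It had 165 and 156 CPM with DMSO and 125 and 127 with dTAG, so that the groups did not overlap and the dTAG libraries were nearly equal. The level fell by 0.35 on the log2 scale (SE 0.084, adjusted p = 0.017, where the adjustment of edgeR's test is that of Benjamini and Hochberg over all tested genes). ETV6 (ENSG00000139083.10) covers 245.6 kb of chromosome 12, from 11649854 to 11895402 on the plus strand. Its fold stood at -0.40 with GC and length trends removed. With ERCC totals as library sizes, under which all tested genes had a median of 0.63, it turned to 0.29 and did not pass. A replicate block kept it at -0.35 with an adjusted p of 0.106. Leaving out dTAG replicate 1 or dTAG replicate 2 kept the fold at -0.34 and -0.35 but raised the adjusted p to 0.447 and 0.774, within a range of 9.6e-09 to 0.774 over the 14 alternatives, 10 of which passed.

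The ratio of ETV7 to ETV6 counts rests on the values that chose ETV7 and is a description. For every ETV6 count there were 0.0381 and 0.0568 ETV7 counts with DMSO and 0.0205 and 0.0226 with dTAG. The ratios of the groups did not overlap, and the geometric mean of the ratio with dTAG was 0.462 of that with DMSO. ETV3, another repressor of the family, had 38.2 and 38.9 CPM with DMSO and 39.8 and 36.4 with dTAG. The groups overlapped, and the log2 fold change was -0.02 with an interval, of 1.96 SE to either side, of -0.20 to 0.17. ETV3 (ENSG00000117036.11) lies on chromosome 1, from 157121191 to 157138474 on the minus strand.

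Of the PEA3 genes on the list, ETV5 was upregulated and ETV4 was not called. ETV5 had 104 and 97.2 CPM with DMSO against 121 and 139 with dTAG, without overlap, and the dTAG libraries differed from each other by more than the DMSO libraries. Its log2 fold change was 0.37 (SE 0.089, adjusted p = 0.016, edgeR's quasi-likelihood test). ETV5 (ENSG00000244405.7) lies on chromosome 3, from 186046308 to 186110318 on the minus strand, and shares 7.27% of this interval with DGKG on the same strand. The call rested on both dTAG libraries and on the terms of the model. It held with upper-quartile scaling (0.30, adjusted p = 0.036, edgeR's test) and in DESeq2 (0.38, adjusted p = 0.0050). With ERCC totals as library sizes it was lost (1.02, adjusted p = 0.472, edgeR's test). The adjusted p was 0.145 without dTAG replicate 1 (log2 fold change 0.47), 0.910 without dTAG replicate 2 (0.27), 0.067 with a replicate block (0.37) and 0.113 with a factor from the ERCC spike-ins (0.19). The value was 0.30 with GC and length trends removed (adjusted p = 0.0033), and 9 of 14 alternatives passed, with a range of 8.8e-08 to 0.910.

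ETV4 had 25.6 and 29.6 CPM with DMSO and 27.8 and 27.7 with dTAG, so both dTAG values lay between the DMSO values. The log2 fold change was 0.0066, with an interval of -0.20 to 0.21. ETV4 (ENSG00000175832.12) lies on chromosome 17, from 43527844 to 43579620 on the minus strand, and DHX8 on the opposite strand overlaps 32.1% of it. Within a library, ETV5 had 4.06 and 3.28 counts per ETV4 count with DMSO and 4.35 and 5.03 with dTAG, which do not overlap.

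Among the ternary complex factors, ELK3 was upregulated and the other two were not called. ELK3, which acts as a repressor until ERK phosphorylates it, had 114 and 116 CPM with DMSO and 152 and 145 with dTAG. The replicates were close in both groups, and the groups did not overlap. The log2 fold change was 0.37 (SE 0.083, adjusted p = 0.011, edgeR's quasi-likelihood test). ELK3 (ENSG00000111145.7) lies on chromosome 12, from 96194382 to 96269835 on the plus strand. Its log2 fold change lay between 0.30 and 1.01 over the 14 alternatives, and 10 of them passed, with adjusted p-values from 7.0e-07 to 0.523. With GC and length trends removed it was 0.34. The calls lost included those with a replicate block (0.37, adjusted p = 0.073), without dTAG replicate 1 (0.34, adjusted p = 0.414) and without dTAG replicate 2 (0.40, adjusted p = 0.523).

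ELK1, the best known partner of SRF, had 28.9 and 29.2 CPM with DMSO and 30.2 and 31.5 with dTAG, both slightly higher. Its log2 fold change of 0.085 had an interval of -0.11 to 0.28 and an adjusted p of 0.60 in edgeR's test. With GC and length trends removed it was 0.19 (adjusted p = 0.078), and it passed under none of 14 alternatives. ELK1 (ENSG00000126767.17) lies on chromosome X, from 47635521 to 47650604 on the minus strand. ELK4, the third of the group, had 65.2 and 56.2 CPM with DMSO against 66.4 and 66.8 with dTAG. The DMSO replicates differed from each other by more than the nearer of them differed from the dTAG libraries, and the log2 fold change was 0.13, with an interval of -0.04 to 0.31 and an adjusted p of 0.34 in edgeR's test. The value was 0.066 with GC and length trends removed, -0.069 with the ERCC factor and 0.25 without DMSO replicate 1, the 1 of 14 alternatives that passed (adjusted p = 0.0049, in a range up to 0.964). ELK4 (ENSG00000158711.13) lies on chromosome 1, from 205597556 to 205631962 on the minus strand, and MFSD4A overlaps it on the opposite strand.

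Ratios inside this group are a description without a test. Per ELK1 count there were 3.94 and 3.97 ELK3 counts with DMSO and 5.03 and 4.60 with dTAG. Per ELK4 count the values were 1.75 and 2.06 against 2.29 and 2.17. Both ratios were higher in each dTAG library than in either DMSO library. As for the other ratios given here, no share over other gene pairs was taken. Of single tested genes, 58.8% likewise had groups that did not overlap.

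ETS1 and ETS2 had folds of opposite sign, and neither passed the test. ETS2 had 160 and 175 CPM with DMSO and 146 and 136 with dTAG, without overlap, and a log2 fold change of -0.25 (SE 0.088, adjusted p = 0.081, edgeR's quasi-likelihood test). It passed under 4 of 14 alternatives, among them upper-quartile scaling (-0.32, adjusted p = 0.025), removal of GC and length trends (-0.21, 0.0043) and omission of DMSO replicate 1 (-0.31, 5.4e-05), in a range of 5.4e-05 to 0.949. ETS2 (ENSG00000157557.11) lies on chromosome 21, from 38805307 to 38824955 on the plus strand. ETS1 had 10.4 and 9.57 CPM with DMSO and 12.3 and 11.9 with dTAG, also without overlap, and a log2 fold change of 0.28 (SE 0.13, adjusted p = 0.19, edgeR's test). It was 0.19 with GC and length trends removed and 0.16 with the ERCC factor, and passed without DMSO replicate 1 alone (0.34, adjusted p = 0.035, in a range up to 0.949). ETS1 (ENSG00000134954.14) lies on chromosome 11, from 128458761 to 128587558 on the minus strand. In each library, ETS1 had 0.0647 and 0.0546 counts per ETS2 count with DMSO and 0.0840 and 0.0874 with dTAG.

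Of the 9 genes other than ETV7, 2 were called upregulated, 1 downregulated and 6 neither way, where 7.10% of all tested genes were called, 3.44% upregulated and 3.66% downregulated. Their median log2 fold change was 0.085, against -0.015 over all tested genes. The groups did not overlap for 7 of them, 5 higher and 2 lower with dTAG. Among all tested genes this held for 58.8%, so the count for these genes is near the background. Which library was left out decided the number called, for these genes and for all. It was 0 of 9 without dTAG replicate 1 and 0 of 9 without dTAG replicate 2, where 2 of 9 had an unadjusted p under 0.05 in either case and 1.09% and 0.547% of all tested genes were called. It was 3 of 9 without DMSO replicate 2, against 11.9% of all tested genes, and 6 of 9 without DMSO replicate 1, where 43.5% of all tested genes were called and ETS1, ETS2 and ELK4 joined. DESeq2 on all 4 libraries called 3 of 9.

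**Figure D3:**
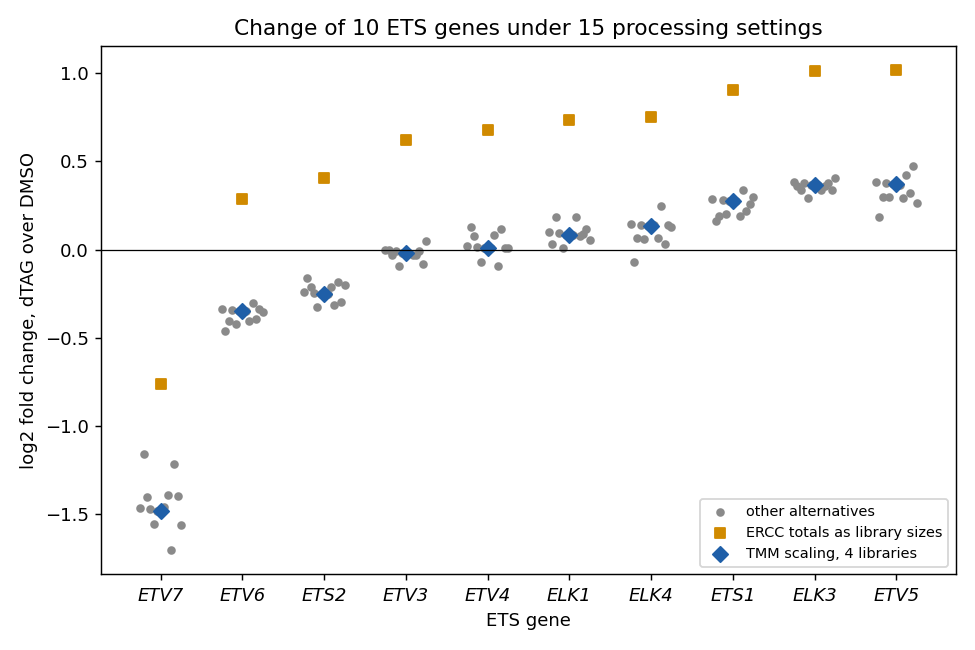
Log2 fold change of dTAG over DMSO (y axis) for each of the 10 ETS genes (x axis) under 15 processing settings, with the values of the report as blue diamonds, ERCC totals as library sizes in orange and the other alternatives in grey. ETV7 stays between -1.70 and -0.76, and with ERCC totals every gene lies higher than with TMM scaling, as does the median of all tested genes at 0.63.

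**Figure D4:**
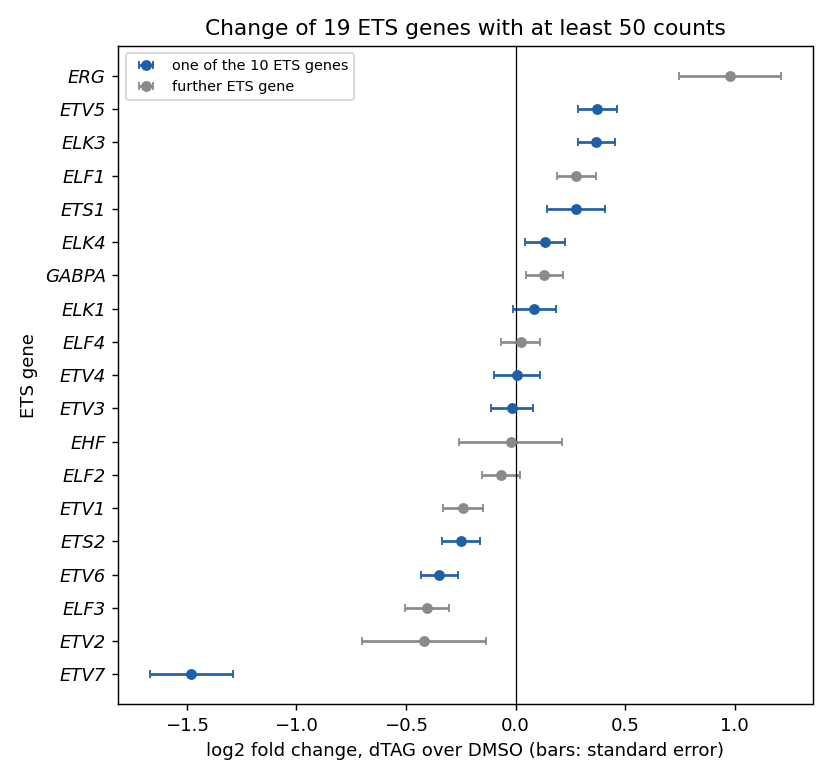
Log2 fold change of dTAG over DMSO (x axis, bars are SE) for the 19 ETS genes that were tested (y axis), with the 10 listed genes in blue and 9 further family members in grey. ETV7 lies at -1.48, ERG at 0.98, and the remaining genes within 0.42 of 0.

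The family has 28 genes in this table, and the 18 that are not on the list were read in the same way. Of these, 9 were tested, 1 was upregulated (ERG), 1 downregulated (ELF3) and 7 were not called, with a median log2 fold change of -0.02. Over all tested genes 7.10% were called, 3.44% upregulated and 3.66% downregulated. ERG, best known from endothelial cells and from gene fusions in prostate cancer, had 1.08 and 1.22 CPM with DMSO and 2.22 and 2.33 with dTAG. Its log2 fold change of 0.98 (SE 0.23, adjusted p = 0.015, edgeR's quasi-likelihood test) rested on 107 to 222 counts per library. With GC and length trends removed the log2 fold change of ERG was 0.90. Summed endothelial markers were 3.01 and 3.54 CPM with DMSO and 2.25 and 2.74 with dTAG, lower in both dTAG libraries.

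ELF3, an ETS factor of epithelia, had 54.7 and 68.1 CPM with DMSO and 47.1 and 45.6 with dTAG. It fell by 0.41 on the log2 scale (SE 0.099, adjusted p = 0.018, edgeR's test), and by 0.19 with GC and length trends removed (adjusted p = 0.027) or with the ERCC factor (0.157). Leaving out a dTAG library ended both calls, with an adjusted p of 0.139 for ERG and 0.228 for ELF3 without dTAG replicate 1, and of 0.421 and 0.599 without dTAG replicate 2. Over the 14 alternatives the adjusted p ranged from 0.00037 to 0.472 for ERG and from 4.4e-11 to 0.656 for ELF3. ETV1, the third PEA3 gene, had 99.7 and 82.1 CPM with DMSO and 76.0 and 77.9 with dTAG, a log2 fold change of -0.24 (adjusted p = 0.11, edgeR's test). It passed under 5 of 14 alternatives, at -0.43 with GC and length trends removed (adjusted p = 4.2e-05), -0.50 with the ERCC factor (2.7e-05) and -0.38 without DMSO replicate 2 (5.3e-06), and stood at -0.09 without DMSO replicate 1 (0.28). Per ETV1 count there were 1.04 and 1.18 ETV5 counts with DMSO and 1.59 and 1.79 with dTAG, the clearest shift of balance inside this group, picked with the values known.

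Below the minimum were 9 family genes. FLI1, ELF5, SPDEF, SPI1, SPIB and SPIC had at most 53 counts in any library. ETV3L, ERF and FEV were at 0 in all 4 libraries. For ERF, the repressor that ERK expels from the nucleus, the 0 cannot be read as absence. Its interval lies almost wholly inside another gene of the table on the same strand, and all 436 genes that lie wholly inside a gene of the same strand were at 0, while of 575 that lie inside a gene of the opposite strand alone 19.5% were at 0.

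Levels between genes were compared as CPM per kilobase of gene interval, over the DMSO libraries. ETS2 was highest of the 10 at 8.54, above 95.3% of tested genes, and ETS1 lowest at 0.0774, above 9.21%. In between came ETV3 at 2.23, ELK1 at 1.93, ELK4 at 1.76, ETV5 at 1.57, ELK3 at 1.52, ETV6 at 0.653, ETV4 at 0.533 and ETV7 at 0.224. ETV5 and ELK3 were the neighbours in this order whose DMSO libraries overlapped. Among all 19 tested ETS genes ELF3 came second at 6.64 and ERG last at 0.0041. With DMSO, then, ETV7 had a low level on this scale, above 18.1% of tested genes.

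**Figure D5:**
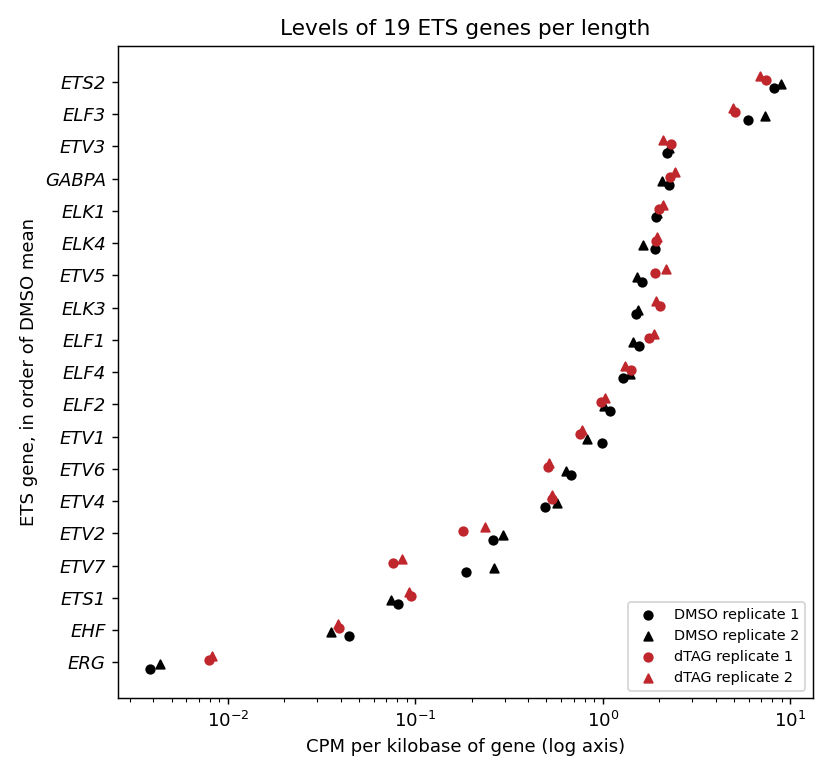
CPM per kilobase of gene (x axis, log scale) of the 19 tested ETS genes (y axis, in order of the DMSO mean) in each library, DMSO in black and dTAG in red. ETS2 and ELF3 stand highest at 8.54 and 6.64, ERG lowest at 0.0041, and ETV7 is the gene whose red points lie furthest to the left of its black points.

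No gene around ETV7 was called. Of 9 genes within 250 kb, 8 were tested and 0 were called in edgeR's quasi-likelihood test. An unadjusted p under 0.05 was found for 0 of the 8 and for 3355 of the 12612 tested genes. DESeq2 likewise called 0. Over all tested genes 7.10% were called, so 0 of 8 is near the background. With GC and length trends removed, 2 of the 8 and 4099 of all tested genes had an unadjusted p under 0.05. With the ERCC factor these were 2 and 3000. BNIP5 was below the minimum with at most 4 counts. PXT1, which lies 2.75 kb from ETV7, had 126 and 169 counts with DMSO and 142 and 102 with dTAG, which overlap, and a log2 fold change of -0.22. PNPLA1 had the lowest of the 8 at -0.37 (adjusted p = 0.32), on 118 to 186 counts. The others were MAPK14 at 0.13, MAPK13 at -0.17, BRPF3 at -0.15, KCTD20 at -0.05, STK38 at -0.02 and SRSF3 at -0.02. Without DMSO replicate 1, 3 of the 8 passed, where 43.5% of all tested genes did.

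The tested genes whose profile over the 4 libraries was nearest to that of ETV7 were looked up by the Euclidean distance of log2 CPM, each relative to its DMSO mean. They were DHRS2 at a distance of 0.255, ACSBG1 at 0.419, MUC22 at 0.551, ATOH8 at 0.558 and SAMD11 at 0.563. None of them is an ETS gene, and all are low, between 3.66 and 6.37 CPM in the DMSO libraries. This is a likeness over 4 libraries of genes with large falls.

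Of 35 interferon response genes, the class to which ETV7 belongs in other cells, 23 were tested and 12 were below the minimum. In edgeR's test 1 was downregulated, which is 4.35% of those tested, and 22 were not called. Over all tested genes 3.66% were downregulated, so this count is near the background. The median log2 fold change of the 23 was -0.20, against -0.015 over all tested genes, and 18 of the 23 were below 0. UBE2L6, the conjugating enzyme for ISG15, had 13.2 and 15.5 CPM with DMSO and 10.3 and 10.8 with dTAG. Its log2 fold change was -0.45 (SE 0.13, adjusted p = 0.046, edgeR's test), and -0.35 with GC and length trends removed. The others did not pass. Named for their low values, IFIT1 was at -0.60, TAP1 at -0.47, ISG15 at -0.42 and IRF1 at -0.34. Their adjusted p-values in edgeR's test were 0.096, 0.078, 0.074 and 0.084. Of the 23, 5 were above 0, the highest at 0.10. GC and length trends were not removed from these values or from the median. The UBE2L6 call was lost without DMSO replicate 2 (adjusted p = 0.082), dTAG replicate 1 (0.431) and dTAG replicate 2 (0.695), in a range of 0.00012 to 0.695 over the alternatives, and with the ERCC factor (-0.33, adjusted p = 0.157).

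Of 21 partners and regulators of ETS factors, 20 were tested, with 2 upregulated, 1 downregulated and a median log2 fold change of 0.089. That is 15% called, where 7.10% of all tested genes were, 3.44% upregulated and 3.66% downregulated. RUNX1, which binds DNA beside ETS1, had 253 and 247 CPM with DMSO and 329 and 319 with dTAG. Its log2 fold change was 0.38 (SE 0.090, adjusted p = 0.016, edgeR's test), and 0.35 with GC and length trends removed. GABPB1, the partner of the ETS factor GABPA, had 81.5 and 75.2 CPM with DMSO and 94.7 and 98.6 with dTAG, a log2 fold change of 0.30 (adjusted p = 0.034), which was 0.17 with GC and length trends removed (0.017) and 0.15 with the ERCC factor (0.173). CIC, the repressor of the PEA3 genes, had 44.3 and 49.0 CPM with DMSO and 37.8 and 36.8 with dTAG. It fell by 0.32 on the log2 scale (adjusted p = 0.041), and by 0.07 with GC and length trends removed, where it no longer passed (adjusted p = 0.479, in a range of 3.1e-05 to 0.882 over the alternatives). SRF itself was at 0.15 (adjusted p = 0.36, edgeR's test). None of the 3 calls held without dTAG replicate 1 (adjusted p-values of 0.386 to 0.453) or dTAG replicate 2 (0.723 to 0.887).

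The ERK cascade, which acts on most of the 10 factors, had 22 of 22 genes tested, with 1 called each way and a median of 0.053. That is 9.09% called, near the 7.10% of all tested genes. RPS6KA3 had 105 and 85.0 CPM with DMSO and 120 and 125 with dTAG (log2 fold change 0.37, adjusted p = 0.024), and RPS6KA1 had 53.0 and 68.8 against 49.0 and 45.1 (-0.37, adjusted p = 0.039). Both encode RSK kinases that ERK activates. With the ERCC factor the values were 0.08 and -0.08 (adjusted p = 0.489 and 0.583), with GC and length trends removed 0.21 and -0.24, and with ERCC totals RPS6KA1 turned to 0.32. Neither passed without dTAG replicate 1 (adjusted p = 0.266 and 0.224) or dTAG replicate 2 (0.761 and 0.852), nor RPS6KA1 without DMSO replicate 2 (0.155). Of 10 ERK output genes, all tested, 1 was called, which is 10% against 7.10% of all tested genes. It was EPHA2, a receptor tyrosine kinase, at 176 and 192 CPM with DMSO and 264 and 229 with dTAG. Its log2 fold change was 0.42 (SE 0.095, adjusted p = 0.011, edgeR's test), and 0.61 with GC and length trends removed. Without dTAG replicate 1 the value was 0.32 (adjusted p = 0.505) and without dTAG replicate 2 it was 0.52 (0.216). The feedback genes SPRY2, SPRY4, DUSP4 and DUSP6 were at -0.28, -0.04, 0.06 and -0.12, and none passed.

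Of 9 genes with serum response elements on which the ternary complex factors act, 2 were upregulated, against 3.44% of all tested genes, 8 were above 0 and the median was 0.30. EGR1, a zinc finger factor, had 26.0 and 21.0 CPM with DMSO and 80.9 and 46.1 with dTAG, and the dTAG libraries differed widely. Its log2 fold change was 1.44 (SE 0.16, adjusted p = 1.9e-05, edgeR's test), and 1.65 with GC and length trends removed. NR4A1, an orphan nuclear receptor, had 13.4 and 16.2 against 23.3 and 19.4 CPM. Its log2 fold change was 0.53 (adjusted p = 0.017, edgeR's test), and 0.70 with GC and length trends removed. FOS was at -0.21 and did not pass (adjusted p = 0.57). The count was 1 without dTAG replicate 1 and 1 without dTAG replicate 2, NR4A1 being lost at adjusted p-values of 0.407 and 0.081, rising to 5 when DMSO replicate 1 was omitted (43.5% of all tested genes called) and to 6 when DMSO replicate 2 was (11.9%).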

How the data were processed

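The libraries were TT-Seq of HCT116 KAP1_dTAG_CloneD5 cells, 2 with DMSO and 2 with dTAG, described in the methods as biological replicates. To make the table, the authors ran Trim Galore 0.6.4 on paired reads of 50 bp, aligned these to hg38 by STAR, and assigned them with featureCounts (Subread 1.6.3) to ERCC spike-ins and to protein-coding genes from end to end. What was deposited is the raw count of each gene in each library, not normalized. Strand use was not given in the sources used here, and was read from nested genes in the table. Starts in the table are 0-based, and 1 was added.

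Counts were analysed in R 4.3.3 with edgeR 4.0.16 (TMM, quasi-likelihood F test, two-sided, Benjamini-Hochberg adjustment over the 12612 genes that reached 50 counts in each of the 4 libraries), with DESeq2 1.42.0 as an alternative. The function and number of factors of the spike-in normalization that the study used were not found, so spike-ins entered only as alternatives, as ERCC totals or as 1 factor from the 14 ERCC RNAs above the minimum. GC content and length trends were removed with lowess curves of span 0.3. Standard errors are the log2 fold change divided by the root of the F statistic. The function that fits the models was tested on simulated counts with known folds, and the other steps were not. Every named gene came from a rule that takes all 10 members, the called genes of each list (up to 4 each way), the tested genes within 250 kb of ETV7 and the 5 profiles nearest to it, and other values from the lists were chosen after they were seen. The members and lists were chosen with earlier results of these data known.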

Additional observations from a re-analysis of the deposited data

How the results depend on the processing

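Most of the 14 alternatives changed 1 choice each. The ERCC factor was fitted with upper-quartile scaling in place of TMM, so its values hold both changes. DESeq2 brought its own scaling and test, and GC and length trends were also removed together with a replicate block. The fall of ETV7 kept its sign in all 14, which is a description, since ETV7 was chosen for this fall in these same libraries. With ERCC totals as library sizes it was -0.76 with an SE of 0.48. Precision was limited by 2 libraries per group and, for ETV7 and ERG, by few counts. Where 1 library was left out, the lone library of its group was assumed to vary like the other group. The cause of the differences between settings was not tested.

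Over the settings without 1 library, the count of calls ran from 69 (without dTAG replicate 2) to 5491 (without DMSO replicate 1) over the tested genes, from 0 to 6 of the 9 ETS genes, from 0 to 4 of the further family genes, from 0 to 11 of the partners, from 0 to 14 of the ERK cascade, from 0 to 5 of the ERK outputs, from 1 to 6 of the serum response genes, from 0 to 6 of the interferon genes and from 0 to 3 of the genes near ETV7. The median of the 9 ETS genes ran from 0.056 to 0.118, and ETV7 from -1.70 to -1.22. Sign changes were those of ETV4 without DMSO replicate 1 (-0.10, in a range up to 0.115), STK38 without DMSO replicate 1 (0.080, in a range from -0.113), PXT1 without DMSO replicate 2 (0.0046, in a range from -0.41) and ETV3 without dTAG replicate 2 (0.047, in a range from -0.080).

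ERCC counts were 14798 and 25165 with DMSO and 13870 and 9551 with dTAG, replicates 1 and 2 in turn. The DMSO libraries were further apart in them than DMSO replicate 1 was from dTAG replicate 1. With ERCC totals as library sizes, the median of all tested genes rose to 0.63 and 0 tested genes were called. Of these genes 229 had an unadjusted p under 0.05, while DESeq2 with its own scaling called 1252. With ERCC totals each list had 0 calls. ETV7 was then at -0.76 and the median of the 9 ETS genes at 0.74. Below that median shift but above 0 were ETV3 (0.62), ETS2 (0.41), ETV6 (0.29), TRIM28 (0.28), ELF3 (0.28), CIC (0.34), RPS6KA1 (0.32), UBE2L6 (0.23), MAPK13 (0.50), BRPF3 (0.51), PNPLA1 (0.24), PXT1 (0.46), KCTD20 (0.58), STK38 (0.60) and SRSF3 (0.63). With the ERCC factor, 9.48% of all tested genes were called, with 6 of 9 serum response genes and 0 of 23 interferon genes. ETV7 was then at -1.16 and the median of the 9 ETS genes at 0.032. ELK4 (-0.069), MAPK14 (-0.077), MAPK13 (0.020) and PXT1 (0.16) changed sign. Upper-quartile scaling called 8.91% of all tested genes, with 2 calls each for ERK outputs and interferon genes. It gave a median of 0.012 for the 9 ETS genes and ETV4 at -0.068. DESeq2 called 9.93% of all tested genes and 2 ERK outputs.

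The likelihood ratio test called 1593 tested genes (12.6%), 2 ERK outputs, 4 serum response genes and 5 interferon genes. No count filter gave 1417 (8.12% of 17450), with 2 ERK outputs and 3 interferon genes. With GC and length trends removed there were 2284 calls (18.1%), 5 of them among further family genes and 5 among partners. There were also 8 in the ERK cascade, 5 among ERK outputs, 7 serum response genes and 2 interferon genes.

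Samples with the same replicate number did not deviate together. Across the 12612 tested genes, the deviations of DMSO replicate 1 and dTAG replicate 1 from their group means had a Pearson r of -0.30. With 2 libraries per group, replicate 2 mirrors replicate 1, so this single comparison cannot settle pairing. The numbers are not taken as pairs. A replicate block gave 340 calls over the tested genes (2.7%) and 0 each among the 9 ETS genes, partners, ERK cascade, ERK outputs and interferon genes. An unadjusted p under 0.05 was then found for 4 of the 9 ETS genes and for 2087 of the 12612 tested genes. The replicate block with GC and length trends removed gave 2627 calls, 5 among further family genes, 5 among partners, 8 in the ERK cascade, 5 among ERK outputs, 7 serum response genes and 2 interferon genes. Crossing the numbers, an alternative added after the data were seen, gave 3190 calls, 4 of them among the 9 ETS genes.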
